A study of Saccharomyces cerevisiae with 6 samples.

Results

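The pericentromere of chromosome II was described here from 384 bins of 20 bp, out of 14224 bins that passed the authors' test over the whole budding yeast genome. The bins were chosen by position alone, as every listed bin of chromosome II whose start lay from 218204 to 258204 on build R64. This is 20 kb on each side of the middle (238204) of the gap between ECM15 and NTH2, the genes closest to the centromere on the 2 arms. The samples were 3 ctf19-9A and 3 WT diploid cultures, each started from the colony of a separate zygote. Both genotypes carried Rec8-3xFLAG-MNase and the ndt80-delta deletion, which keeps meiotic cells from leaving prophase I. The comparison therefore shows nothing about later meiotic stages. The share of cells that had reached prophase I is not known here. Cells grew in YP acetate for about 16 h and then stood in 1% potassium acetate for 4.5 h. The labels name the background X and Y without explaining these letters.

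Rec8 is the meiosis-specific kleisin of cohesin, the ring-shaped complex that holds sister chromatids together. In yeast, cohesin is loaded strongly at centromeres, where phosphorylated Ctf19, an inner kinetochore protein, binds the loader. From there it spreads into the flanking pericentromere and is known to accumulate where genes are transcribed toward each other, at convergent gene pairs. In ctf19-9A, phosphorylation sites of Ctf19 are replaced by alanine. Chromatin endogenous cleavage with sequencing (ChEC-seq) reads out Rec8 by its fused micrococcal nuclease (MNase), which cuts nearby DNA once calcium is added, here 2 mM CaCl2 for 5 min.

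The deposited table holds the authors' comparison of the genotypes and no value for a single culture. Depth per culture is therefore unknown, no SD between cultures can be given, and the precision of each bin is the standard error (SE) implied by its log2 fold change and p-value. A listed bin is one with an adjusted p (false discovery rate) under 0.05. For a bin that is not listed, the table does not tell whether it was untested or tested without passing. The direction of the ratio is not stated. It is here taken to be ctf19-9A divided by WT, the likely order, since the design asks how Rec8 differs in the mutant of a protein that recruits the cohesin loader. A negative value would then be less Rec8 cleavage in ctf19-9A than in WT, and with the sign turned every direction below swaps. None of the edited genes lies on chromosome II, so these bins cannot check the labels.

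The listed changes of Rec8 cleavage around the centromere of chromosome II were almost wholly in the negative direction. Of the 384 listed bins, 382 were negative and 2 were positive. The negative bins covered 7.64 kb, or 19.1% of the 2000 such bins that tile the 40 kb. Their median log2 fold change was -0.81, a 1.75-fold difference, the quartiles were -1.01 and -0.62, and the SE had a median of 0.18. Over all nuclear chromosomes, negative bins made up 0.925% of all bins of this size and 3.6% of the 154927 bins that the adjustment implies were tested, and bins of either sign 9.18%. The remainder of chromosome II held 0 negative and 465 positive bins, with a median of 0.54. The nearest of those lay 64 kb to the left and 42.9 kb to the right of the centromere, so all listed negative bins of the chromosome stood within the 40 kb. This was not particular to chromosome II. The same share was also 100% on chromosomes IV, V and XVI, among others, and 64.2% at the lowest, on chromosome XV. The same windows of the other 15 chromosomes held 4883 negative and 55 positive bins, and the negative ones covered 16.3% of their sequence. All listed bins had passed a threshold, so their medians overstate the average change of the region. Without values by culture, the zero point of the log2 fold changes could not be checked. Whether Rec8 cleavage rose outside the 40 kb was therefore not tested.

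**Figure D1:**
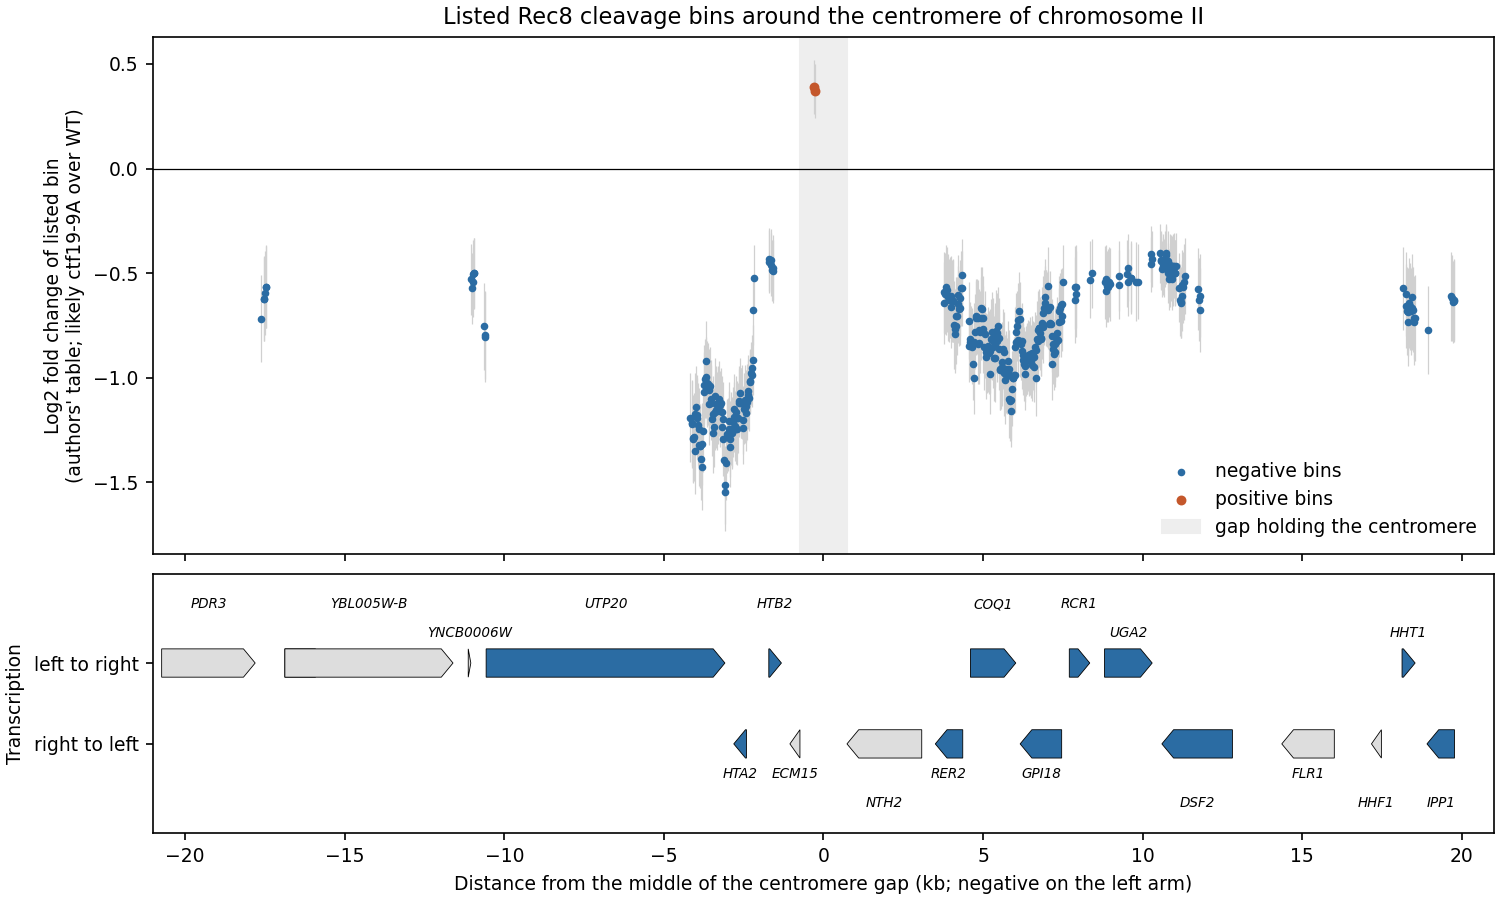
Log2 fold change of each listed 20 bp bin (points, with 1 implied SE on either side as grey bars) against distance from the middle of the centromere gap in kb, above the annotated genes drawn as arrows in their direction of transcription. Genes with a negative bin are blue. Negative bins form a deep group on the left arm that reaches -1.55 and a longer, shallower group on the right arm that reaches -1.16, with 2 positive bins in the shaded gap between them.

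Among listed bins, the change was deeper on the left arm and covered less sequence than on the right arm. Unlisted bins may not have been tested, so this extent is that of the listing. The left arm held 122 negative bins with a median of -1.13, and the right arm held 260 with a median of -0.72. Of the left-arm bins, 92 had a log2 fold change of -1 or lower, against 10 on the right arm. The median SE was 0.18 on both arms, with a range of 0.147 to 0.214 on the left and 0.133 to 0.215 on the right. Where the SE is small, values nearer to 0 can be listed, and its part in the arm medians was not tested. Values of neighbouring bins come from the same 6 libraries and overlapping cleavage patterns, so bins are not replicates and the arms were not tested against each other.

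On the left arm, 107 of the 122 negative bins lay in 1 group of 2.64 kb (234001 to 236640) in which starts were at most 500 bp apart. Within it, 99 bins touched each other without a break over 1.98 kb, with a median of -1.17. This unbroken stretch ran through the end of UTP20, the sequence between UTP20 and HTA2, all of HTA2 and the start of the sequence between HTA2 and HTB2. On the right arm, 239 of 260 negative bins lay in 1 group of 8.06 kb (241961 to 250020), and its longest unbroken stretch held 122 bins over 2.44 kb with a median of -0.85. That stretch ran from COQ1 across GPI18.

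Around the centromere itself no negative bin was listed. The nearest negative bins lay 1.57 kb to the left, in HTB2, and 3.77 kb to the right, in RER2, which left 5.32 kb free of negative bins. This stretch held ECM15 and NTH2, a gene for neutral trehalase, and neither gene had a listed bin of any sign. In the gap between them (237468 to 238940, 1473 bp) lay the 2 positive bins, next to each other at 237901 to 237940. In the authors' deposited table they had log2 fold changes of 0.39 (SE 0.13, adjusted p 0.0338) and 0.37 (SE 0.13, adjusted p 0.0448). Both were small and close to the threshold, and the position of the centromere within the gap was not resolved here. Over all chromosomes, positive bins made up 1.43% of all bins of this size and 5.58% of the implied number tested.

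UTP20 (YBL004W, 227636 to 235117), whose product works in the small-subunit processome during ribosome assembly, held the lowest value of the region. In the authors' deposited table the bin at 235101 to 235120 had a log2 fold change of -1.55, a 2.92-fold difference (SE 0.19, 95% interval -1.91 to -1.18, adjusted p 1.09e-11). Its middle lay 6.5 bp before the annotated end of the gene and 3.09 kb from the centromere. It was also the bin with the smallest adjusted p of the region. All 54 listed bins of UTP20 lay in the last part of its 7482 bp, at a relative position of 0.852 or beyond, where 0 is the start and 1 the end of the gene. Their median was -1.17 with quartiles of -1.26 and -1.12, and 52 of them were at -1 or lower. The change did not fade toward the outer edge of this group: its outermost bin, at 234001, had -1.19, and a further low of -1.43 (SE 0.20) stood at 234381 to 234400 in the authors' deposited table. Beyond that edge the next 6380 bp, nearly all of it the rest of UTP20, held no listed bin.

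The histone gene pair HTA2 and HTB2, divergently transcribed genes for histones H2A and H2B, showed unlike values on either side of a shared promoter region. HTA2 (YBL003C, 235394 to 235792) had listed bins over its whole length, 20 of 20, all between -1.24 and -1.07 with a median of -1.15. The lowest of these in the authors' deposited table, at 235441 to 235460, had -1.24 (SE 0.17, adjusted p 8.1e-10). HTB2 (YBL002W, 236492 to 236887), nearer to the centromere, had 6 of 19 bins listed, all toward its 5′ end, with values from -0.49 to -0.43. The ranges of the listed bins of the 2 genes did not overlap. Values as near to 0 as those in HTB2 can pass the threshold only where the SE is small. The median SE was 0.15 for the HTB2 bins and 0.17 for those of HTA2. Values of the unlisted HTB2 bins are not known, so the whole genes were not compared. Between them, in the 699 bp from 235793 to 236491, 13 of 35 bins were negative. The lowest, -1.12, adjoined HTA2 and the highest, -0.44, adjoined HTB2, with a median of -0.99.

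On the right arm, the lowest values lay in COQ1 and GPI18, a convergent pair whose ends meet 6.09 kb from the centromere. COQ1 (YBR003W, 242809 to 244230), for the enzyme that makes the side chain of ubiquinone, had 70 of 71 bins listed, with a median of -0.86 and quartiles of -0.96 and -0.81. Its lowest bin in the authors' deposited table, at 244081 to 244100, had -1.16, a 2.23-fold difference (SE 0.18, 95% interval -1.5 to -0.81, adjusted p 2.61e-08), and stood 139.5 bp before the end of the gene. This was the lowest bin of the right arm, and its interval overlapped that of the UTP20 bin. GPI18 (YBR004C, 244366 to 245667), for a mannosyltransferase of glycosylphosphatidylinositol anchor synthesis, had 65 of 65 bins listed with a median of -0.82. Its lowest bin in the authors' deposited table, at 244861 to 244880, had -1.0 (SE 0.18, adjusted p 4.9e-06). In both genes the bins nearer to the 3′ end were lower, with medians of -0.96 against -0.82 in COQ1 and -0.89 against -0.74 in GPI18. The SE of a single bin does not measure the spread of such differences between medians, and they were not tested. Together UTP20, COQ1 and GPI18 held 49.5% of the negative bins of the region.

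RER2 (YBR002C, 241708 to 242568), for a cis-prenyltransferase of dolichol synthesis, was the innermost right-arm gene with a listed bin. It had 28 of 43 bins listed with a median of -0.63, and in the authors' deposited table its lowest bin, at 242321 to 242340, had -0.79 (SE 0.18, adjusted p 0.00106). Outward of GPI18 the listed values came nearer to 0 and the listed bins were more scattered. No listed negative value was smaller in size than 2.83 times its SE, so the listed values depend on the SE. The median SE was 0.17 in GPI18, 0.20 in RCR1, 0.17 in UGA2 and 0.155 in DSF2. The medians of RCR1, UGA2 and DSF2 ran in the order of their SE, and a difference in effect was not tested. RCR1, for a membrane protein known for a role in chitin deposition, had 4 of 32 bins with a median of -0.58. UGA2, for succinate semialdehyde dehydrogenase, had 20 of 75 with a median of -0.54. DSF2 had 34 of 111 bins with a median of -0.50, and 30 of the 34 lay nearer to its 3′ end, which faces the centromere. In the authors' deposited table its bin at 248941 to 248960 had -0.40 (SE 0.14, adjusted p 0.0452), the negative value nearest to 0 in the region, and its lowest, at 249981 to 250000, had -0.68 (SE 0.20, adjusted p 0.0168).

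**Figure D2:**
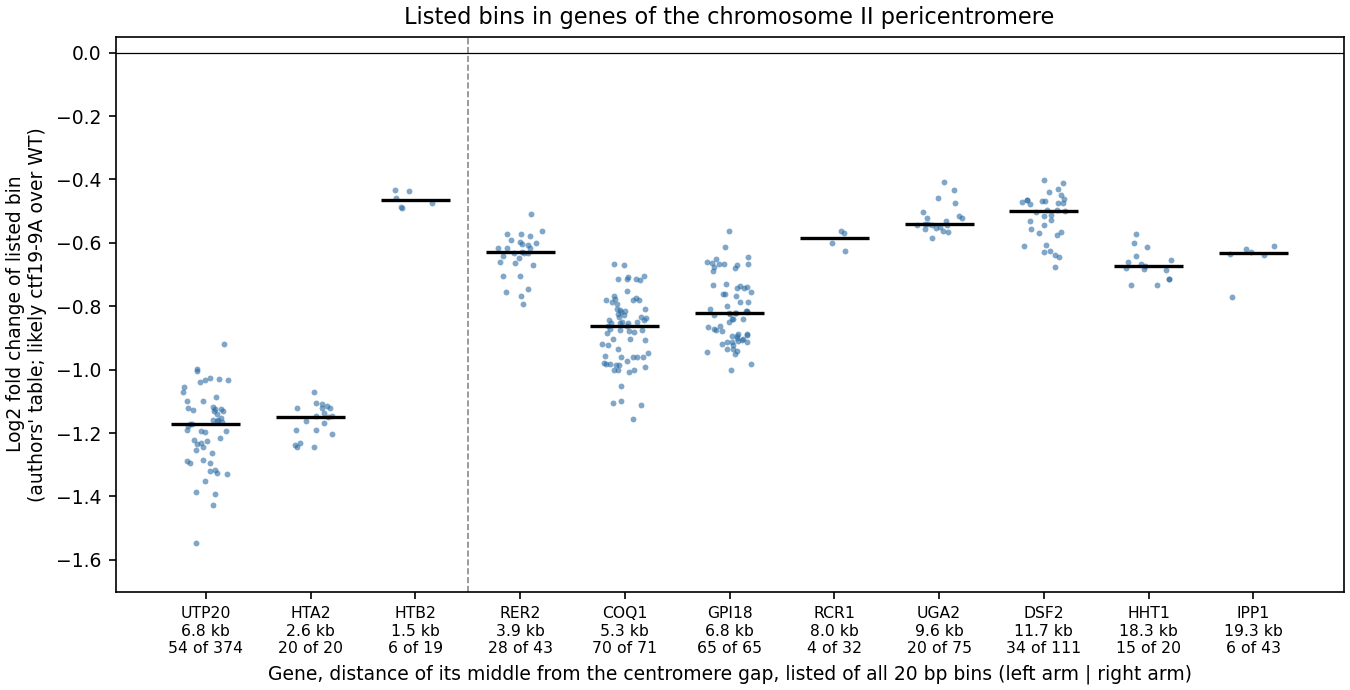
Log2 fold change of every listed bin (points) in the 11 genes that held any, with the median of each gene as a bar, ordered along the chromosome with the left arm before the dashed line. UTP20 and HTA2 sit around -1.15, COQ1 and GPI18 between -0.56 and -1.16, and HTB2 and the outer genes of the right arm above -0.8.

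Farther out, negative bins returned in small patches on both arms after a stretch without any. On the right arm, 6340 bp beyond 250020 held no listed bin. FLR1, for a drug transporter, and HHF1, for histone H4, lie in this stretch and had 0 listed bins each. HHT1 (YBR010W, 256331 to 256741), for histone H3 and divergent from HHF1, had 15 of 20 bins listed, all between -0.73 and -0.57. In the authors' deposited table its lowest bin, at 256501 to 256520, had -0.73 (SE 0.21, adjusted p 0.0135). The median SE of listed bins was 0.20 in HHT1 and in IPP1, against 0.155 in DSF2, so depth was not compared between these genes. IPP1, for inorganic pyrophosphatase, had 6 of 43 bins listed, and the authors' deposited table gave its lowest, at 257141 to 257160, as -0.77 (SE 0.21, adjusted p 0.00871). Its bin at 257961 to 257980 was the outermost negative bin of the chromosome, 19.8 kb from the centromere. The authors' deposited table gave it as -0.63 (SE 0.19, adjusted p 0.0231).

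The outer patches of the left arm lay on either side of a Ty1 retrotransposon. Its open reading frames YBL005W-A and YBL005W-B (221330 to 226598) held 0 listed bins. Outside it, 9 negative bins lay between a tRNA gene, YNCB0006W, and the start of UTP20, and the authors' deposited table gave the lowest, at 227581 to 227600, as -0.81 (SE 0.21, adjusted p 0.00592). On the far side, 6 negative bins lay between the Ty1 element and PDR3, for a transcription factor of drug resistance, which itself had none. The outermost of these, 17.6 kb from the centromere at 220561 to 220580, was listed with -0.72 (SE 0.21) and an adjusted p of 0.0153 by the authors' deposited table. Ty1 elements occur in many near-identical copies, and the histone genes each have a second, closely similar copy elsewhere in the genome. The sources used here do not give how reads that fit several copies were handled, so 0 bins over Ty1 and HHF1 cannot be read as no change. For the same reason, the listed values of HTA2, HTB2 and HHT1 may not belong to these copies alone. The other copies, HTA1 and HTB1 on chromosome IV and HHT2 and HHF2 on chromosome XIV, held 0 listed bins.

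Of the 19 annotated genes that overlap the 40 kb, 11 (57.9%) held a negative bin and 0 held a positive one. Over the same windows of the other 15 chromosomes, 148 of 360 genes (41.1%) held a negative bin, with 3 to 19 genes per chromosome and a median of 10. On the left arm these were 3 of 8 genes, and on the right arm 8 of 11. Gene bodies held 322 of the 382 negative bins (84.3%, against 74.0% of the sequence), and 57.8% of those lay nearer to the 3′ than the 5′ end. Of these 186 bins nearer to the 3′ end, UTP20 alone held 54. Other genes differed, with 30 of 34 bins nearer to the 3′ end in DSF2, 35 of 70 in COQ1 and 7 of 28 in RER2. Right-arm protein-coding genes transcribed away from the centromere (4) had 55.1% of their bins listed, against 27.9% for those transcribed toward it (7). Left-arm shares were 57.1% (2 genes) and 7.2% (5 genes). Single right-arm genes with many and with few listed bins occurred in both directions of transcription. Of the genes transcribed away from the centromere, COQ1 had 98.6% and HHT1 75% of its bins listed, against 26.7% in UGA2 and 12.5% in RCR1. Of those transcribed toward it, GPI18 had 100% and RER2 65.1%, whereas NTH2, FLR1 and HHF1 had 0 listed bins.

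The 5 convergent gene pairs of the region differed in how much of the sequence between the genes was listed. Between UTP20 and HTA2 (235118 to 235393, 276 bp, 2.95 kb from the centromere), 14 of 14 bins were negative, from -1.51 to -1.19 with a median of -1.27. The lowest in the authors' deposited table, at 235121 to 235140, had -1.51 (SE 0.19, adjusted p 3.2e-11) and adjoined the UTP20 bin described above. All 14 bins of this gap were lower than the medians of the listed bins of UTP20 (-1.17) and HTA2 (-1.15). The difference was not tested. Between COQ1 and GPI18 (244231 to 244365, 135 bp, 6.09 kb away), 7 of 7 bins were negative with a median of -0.75. The lowest there in the authors' deposited table, at 244241 to 244260, had -0.83 (SE 0.18, adjusted p 0.000236). Here the median of the gap was nearer to 0 than the medians of both genes, and the difference was not tested.

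Between UGA2 and DSF2 (248504 to 248805, 10.5 kb away), 3 of 15 bins were negative, and the lowest in the authors' deposited table had -0.44 (SE 0.14, adjusted p 0.0208), at 248781 to 248800. The remaining pairs held 0 listed bins between their genes. Between HTB2 and ECM15 (236888 to 237152), 1.18 kb from the centromere, this was 0 of 14 bins, and between HHT1 and IPP1 (256742 to 257111), 18.7 kb away, it was 0 of 19. Both nevertheless had negative bins within 500 bp of their middle, 5 at HTB2 and ECM15 and 15 at HHT1 and IPP1.

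**Figure D3:**
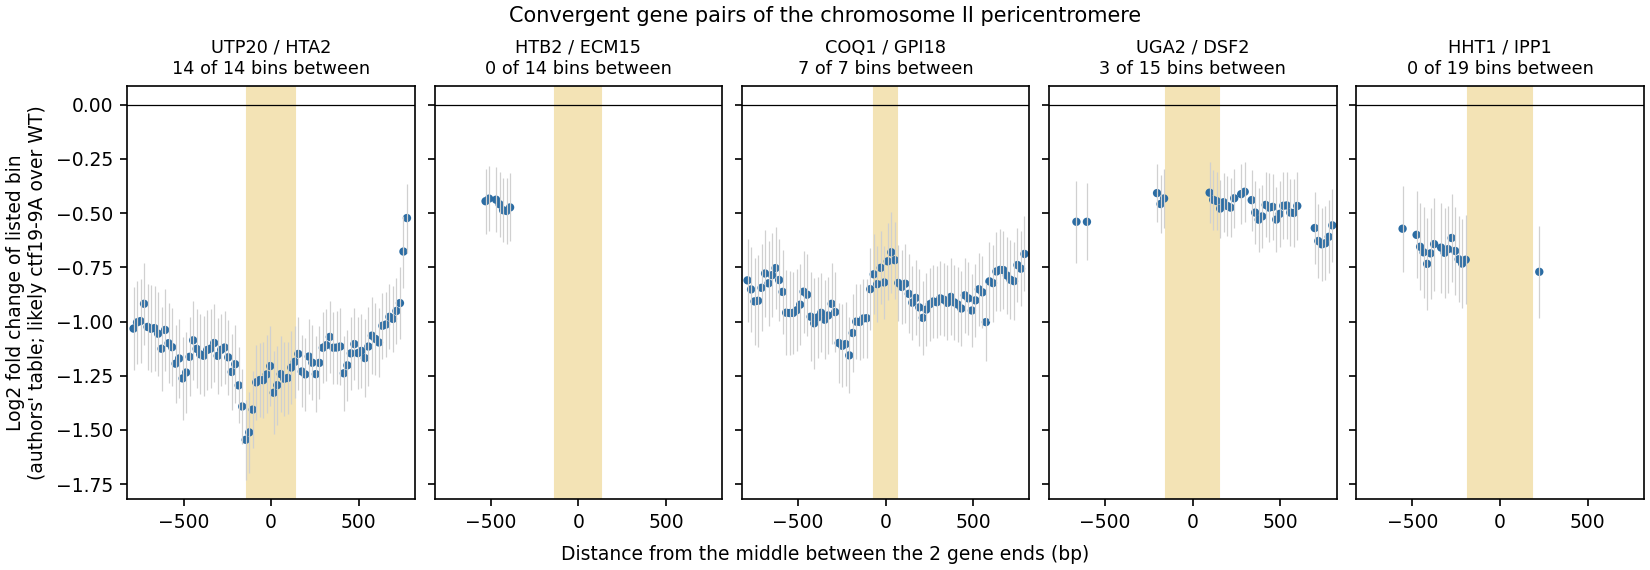
Log2 fold change of listed bins (points, with 1 implied SE on either side) within 800 bp of the middle of each convergent pair, ordered along the chromosome, with the sequence between the gene ends shaded. The pair UTP20 and HTA2 reaches -1.55 at the edge of its gap, COQ1 and GPI18 have their lowest bins in COQ1, and HTB2 with ECM15 and HHT1 with IPP1 have no bin in the gap.

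By class, convergent sequence made up 3.45% of the 40 kb and 6.28% of its negative bins (24 bins, median -1.21). Divergent sequence made up 5.2% of the region and 4.97% of negative bins (19 bins, median -0.92), and tandem sequence, which includes the centromere gap, 17.4% and 4.45% (17 bins, median -0.57). The low convergent median came from the 14 bins between UTP20 and HTA2. The convergent share of negative bins lay within the 1.87% to 27.2% of the other 15 chromosomes and below their median of 8.26%. Of the convergent sequence itself, 34.8% was covered by negative bins on chromosome II, within the 1.55% to 63.9% of the others and above their median of 25.7%.

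Set beside the other 15 chromosomes over the same 20 kb on each side, chromosome II was in the middle by number of bins and at the low end by the values of its left arm. Its 382 negative bins ranked 6 of 16, against 105 to 537 on the others with a median of 327. Its left-arm median of -1.13 was the lowest of the 16, with the others from -1.03 to -0.55, and its lowest bin of -1.55 was followed by -1.51 on chromosome XIV and -1.5 on chromosome IV. The left arm ranked only 12 of 16 by number (122 bins), whereas the right arm ranked 2 (260 bins, behind 295 on chromosome X). The difference of the arm medians, left minus right, was -0.42 on chromosome II, about that of chromosome XIV (-0.42), while chromosome IV had 0.44. Chromosome II held 15 of the 100 lowest bins of the genome and 102 of the 757 with a log2 fold change of -1 or lower. For comparison, it held 382 of all 5576 negative bins. Within 20 kb of the centromere, chromosomes XIV (160) and IV (124) had more bins at -1 or lower, and chromosome II ranked 3. Of its 102 such bins, 91 lay in the unbroken left-arm stretch of 1.98 kb. Chromosome II is a single region in this ranking, so its place in it is a description and was not tested.

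**Figure D4:**
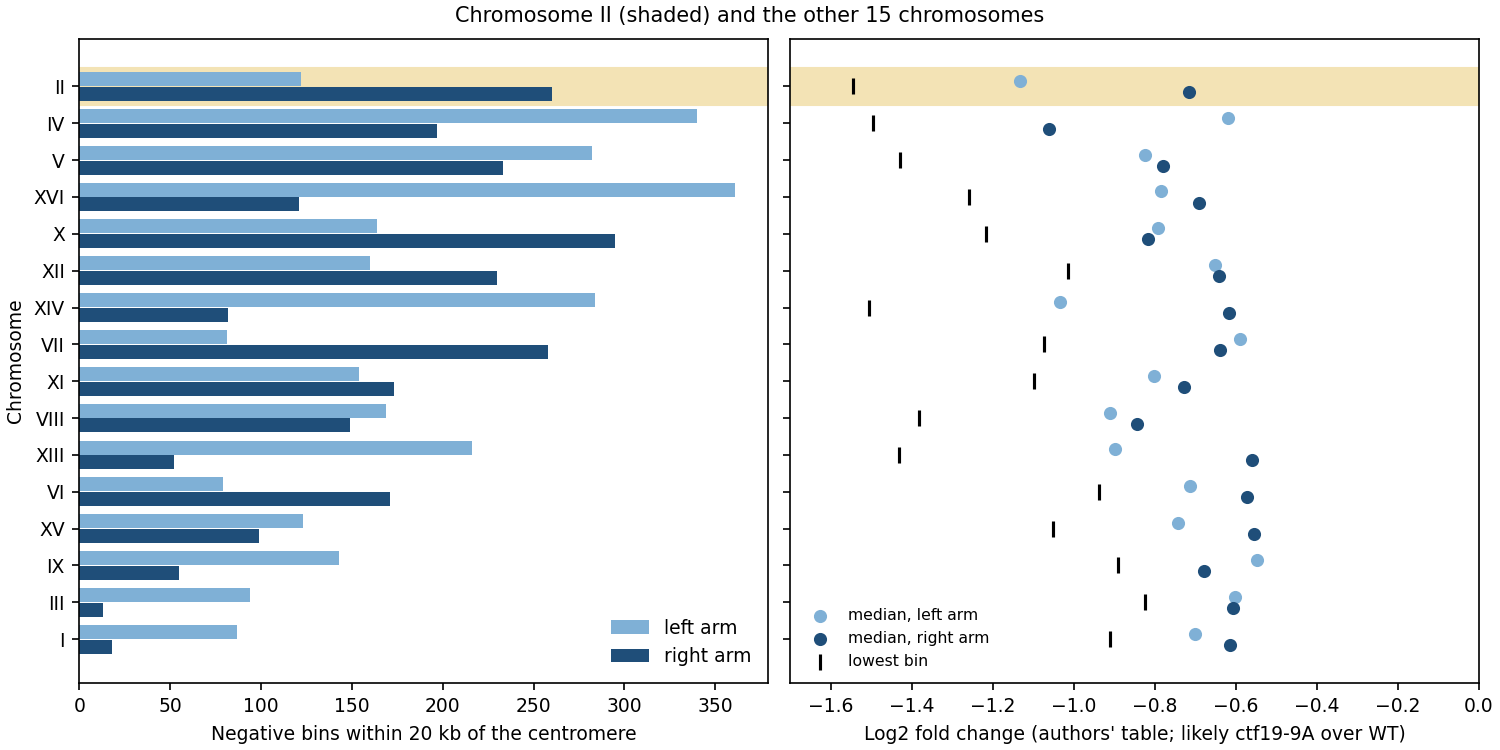
Negative bins within 20 kb of the centromere by arm (bars, left panel) and the median log2 fold change of those bins by arm with the lowest bin (points and ticks, right panel), with chromosome II on top and the other 15 chromosomes ordered by their total. Chromosome II has 122 left-arm and 260 right-arm bins, and its left-arm median of -1.13 is lower than that of any other arm in the plot.

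Of convergent pairs in these windows, 3 of 5 held a negative bin between their genes on chromosome II, against 40 of 94 (42.6%) on the other chromosomes. By the median of the bins between the genes, UTP20 and HTA2 ranked 2 among the 43 pairs with any such bin. The pair LST8 and MRP7 on chromosome XIV came before it with a median of -1.31, and RAD57 and MAF1 on chromosome IV after it with -1.22. COQ1 and GPI18 ranked 17. The 5.32 kb without negative bins around the centromere of chromosome II was close to the median of the others (5.46 kb, range 2.34 to 14.1 kb). Its 2 positive bins in the centromere gap compared with 0 to 15 on the others.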

How the data were processed

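ChEC-seq of Rec8 was compared between 3 ctf19-9A and 3 WT cultures. Per the submitters' processing notes, the tools were DESeq2 (no version), Bowtie2 2.5.0, deepTools 3.4.3 and FastQC 0.11.9, on builds R64 and sacCer3. The sources used here do not give their roles, the read filters or how bins were chosen. Per the file headers, the deposited values are a p-value, a false discovery rate, a log2 fold change and a shrunken log2 fold change for each bin, all made by the authors. No value belongs to a single sample, so no test was run here, and the authors' adjusted p under 0.05 over the whole table was the call.

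The SE was the size of the log2 fold change over the normal quantile of its p-value (two-sided), and 95% intervals used it. The number tested was implied from the last listed bin, if the adjustment was that of Benjamini and Hochberg. Bins were placed by their midpoint on the R64 gene table, with strands and arms read from systematic names. Bins with starts at most 500 bp apart formed a group. The calculations were tested on simulated data (Python 3.11.15, pandas 2.3.3, SciPy 1.17.1).

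Every gene of the region was to be named, with full values for the lowest bin of each arm, of each convergent pair, of the 6 genes with most bins and of the histone genes, and for the outermost and innermost bins. A few further bins were picked after their values were seen. The region, its genes and these rules were chosen with earlier results of these data known. No genome sequence was used here.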

Additional observations from a re-analysis of the deposited data

How the results depend on the processing

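The count of 382 negative bins became 243 with a minimum log2 size of 0.7, and the 260 right-arm bins became 141 with it and 155 with an adjusted p under 0.01, while the left-arm count stayed at 102 to 122 over all alternatives run. The positive bins numbered 0 under both stricter calls. Negative bins covered 12.15% of the region with the minimum size, 12.85% with the stricter p, 30.6% with 10 kb on each side and 12.7% with 30 kb, since the last added no bin on this chromosome. The longest group spanned 3400 bp with either stricter call and 2440 bp where only touching bins were joined. Genes with a negative bin were 7 with the minimum size, and convergent pairs with one were 5 when the 500 bp on each side of the middle were counted. The median was -0.59 with shrunken log2 fold changes. The other 29 of 44 recomputed values moved by no more than 1.5 times, or by less than the SE for the median. The rank of chromosome II was 6 to 8 throughout. Leaving out a culture could not be run, and no paired analysis was possible because the table holds no values by sample. Depth is unknown, so unlisted bins carry no limit.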
